A study of Rattus norvegicus with 8 samples.

Results

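Mitotic callus cells were the cells of the rat fracture callus, the new tissue that joins the ends of a fractured bone, in which genes used at the end of the cell cycle made up a large part of the RNA. A cell counted as mitotic when it had at least 5000 unique molecular identifiers (UMIs, each standing for a captured transcript) and when Cenpf, Ccnb1, Ube2c, Cdc20, Top2a, Tpx2 and Prc1 together held at least 0.1% of them. By this rule 9386 of 65208 cells with at least 5000 UMIs (14.4%) were mitotic, from 69624 barcodes in all, and the remaining 55822 cells are called the other cells. The members were thus chosen by measured values, so every comparison of mitotic with other cells is a description and carries no test.

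Callus cells of Sprague Dawley rats were sequenced with the 10x Chromium V3 chemistry at 12 and 4 weeks after a closed femoral fracture, with 1 library for each treatment and week. The CGRP rats received zoledronate and CGRP (calcitonin gene-related peptide, a neuropeptide of sensory nerves). The magnesium rats received zoledronate and magnesium. The zoledronate rats received zoledronate, a bisphosphonate that blocks bone resorption, and the control rats were untreated, per the labels. Zoledronate was injected under the skin at 0.3 mg/kg each week for 12 weeks before the fracture, and the CGRP and magnesium groups share it. Steel and magnesium-containing nails are both named in the labels, but the sources used here do not give the nail of each group, the dose and route of CGRP or the number of animals per library. Cells freed by 4 h of collagenase A then spent 24 h in a culture dish, so the cycling measured is that of cells in a dish. With 1 library per treatment and week, no difference between libraries has a replicate check.

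A cell that has copied its DNA builds a spindle of microtubules, attaches each chromosome to it through a kinetochore, and waits at the spindle checkpoint until all are attached. The anaphase-promoting complex then marks cyclin B and securin for destruction, the sister chromatids part, and the cell divides. Most genes for this machinery are silent in G1, come on in S and G2, and peak at mitosis, so the same transcripts also mark G2 cells that have not yet entered division. In callus, dividing stromal and progenitor cells supply the fibroblasts, chondrocytes and osteoblasts that rebuild the bone.

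The 7 genes of the rule were found together in the cells it chose. The median mitotic cell had UMIs of 7 of the 7 genes in each of the 8 libraries, and 97.5% to 99.5% of mitotic cells had at least 5 of them, against 1.60% to 11.7% of the other cells. The rule genes held a median of 0.224% to 0.284% of a mitotic cell's UMIs, and at most 0.00625% in the median other cell of any library. The share ran on across the threshold without a gap. Just inside it, from 0.1% to 0.12%, lay 35 cells (zoledronate, week 12) to 203 cells (control, week 12), and just outside it, from 0.08% to 0.1%, lay 42 and 235 cells of those libraries.

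Mitotic cells were callus stroma by their markers. The 14 markers of fibroblastic stroma, 13 of which were listed, summed to 36415 to 57890 UMIs per 1000000 (CPM) in mitotic cells and to 43947 to 70316 CPM in the other cells. The lists of blood cells (5.003 to 24.6 CPM in mitotic and 5.92 to 34.4 CPM in other cells), macrophages and osteoclasts (60.2 to 132 CPM in mitotic and 73.2 to 186 CPM in other cells, for the most part Ctsk), endothelium (34.3 to 50.3 CPM in mitotic and 38.4 to 52.5 CPM in other cells) and skeletal muscle (18.3 to 97.8 CPM in mitotic and 35.8 to 202 CPM in other cells) stayed low. These lists of other cell types were only partly listed, with 4 to 8 of 11 blood genes and 7 of 14 macrophage and osteoclast genes per library. For endothelium 5 to 7 of 10 genes were listed and for skeletal muscle 5 to 6 of 10, so the low sums cover only those genes. Each of the 5 sums, stroma included, was lower in mitotic than in other cells in 8 of 8 libraries. Mitotic cells were also deeper, with a median of 17060 to 25104 UMIs against 12415 to 20003 in the other cells, a ratio of 1.16 to 1.37. Doublets were not removed, and 1.46% to 8.42% of mitotic cells had over 2 times the median UMIs of the other cells, against 0.567% to 4.69% of the other cells themselves. Of 69087 distinct barcodes, 535 occurred in more than 1 library, and 161 mitotic cells carried such a barcode.

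The share of mitotic cells ranged 11.5-fold over the 8 libraries. It was 8.82% in CGRP, 8.63% in magnesium, 2.77% in zoledronate and 23.0% in control at week 12. At week 4 it was 31.8% in CGRP, 13.1% in magnesium, 11.8% in zoledronate and 19.4% in control. Zoledronate had the lowest share at each week. The exact Clopper-Pearson 95% intervals, which cover counting error only, ran from 2.45% to 3.12% for zoledronate and from 22.02% to 23.9% for control at week 12.

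CGRP had 3.19 times the share of zoledronate at week 12 and 2.69 times at week 4. Magnesium had 3.11 times the share of zoledronate at week 12, and 1.11 times at week 4, where the intervals of magnesium (12.4% to 13.9%) and zoledronate (11.1% to 12.6%) overlapped. Zoledronate had 0.121 times the share of control at week 12 and 0.610 times at week 4. These comparisons share the zoledronate libraries and so are not independent of each other. Between weeks, the share at week 12 was 0.277 times that at week 4 in CGRP, 0.657 times in magnesium and 0.234 times in zoledronate, but 1.19 times in control. Each ratio stayed on its side of 1 with the threshold at 0.2% or 0.05%, with each cell thinned to 5000 UMIs, with a minimum of 10000 UMIs, and without Cenpf, the cells above the 95th percentile of UMIs or the shared barcodes. Whether the culture step sets these shares was not tested.

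**Figure D1:**
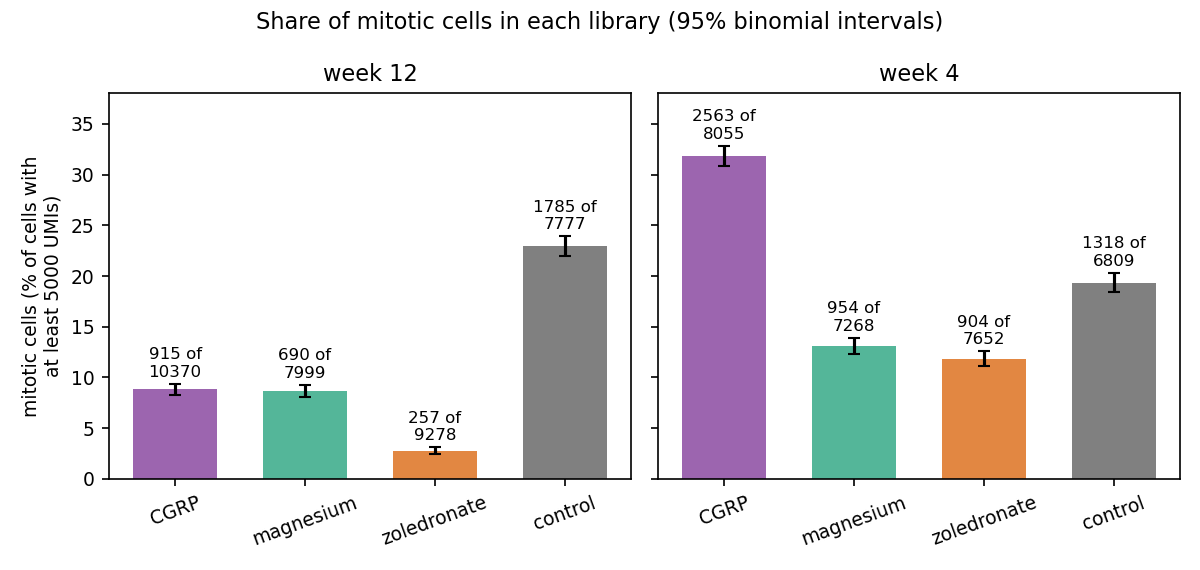
Share of mitotic cells (percent of cells with at least 5000 UMIs, vertical axis) in each library, by treatment at week 12 (left) and week 4 (right). Bars are shares of 1 library each, error bars are exact 95% binomial intervals for counting error, and the numbers are mitotic cells of all cells; zoledronate is lowest at each week, at 2.77% and 11.8%.

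Genes that act together with the rule genes were far higher in mitotic cells. For each library the UMIs of mitotic and of other cells were summed and scaled to CPM without the 7 rule genes, and ratios are log2 of (CPM + 1) in mitotic over other cells. The 5 lists of mitotic genes held 83 genes, of which 71 were listed in the tables, and 71 of 71 were higher in mitotic cells in all 8 libraries, where 31.4% of all 12275 listed genes were. With a mean of at least 50 CPM, 203 of 2516 genes (8.07%) were at least 1.5-fold higher in all 8 libraries and 21 (0.835%) at least 1.5-fold lower. Of the 203 genes, 59 were in a cell cycle list and 144 in none. The split depends on scaling, since the median of all genes was 0.09 here, -0.01 with TMM factors and -0.04 with DESeq2 size factors. TMM factors gave 155 higher and 38 lower, and DESeq2 size factors 135 higher and 50 lower, so that the higher genes were 90.6%, 80.3% and 73.0% of the calls.

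Kinetochore and checkpoint genes had a median log2 ratio of 3.88 over the 13 listed genes. Cenpa, the histone variant that marks the centromere, had 85.7 CPM in the lowest, 93.4 in the median and 112 in the highest library in mitotic cells, against 1.61, 4.53 and 10.3 CPM in the other cells. Bub1, a checkpoint kinase, had 101 to 138 CPM in mitotic and 3.11 to 11.1 CPM in other cells. Spc25, a subunit of the complex that grips microtubules, had 144 to 173 CPM in mitotic and 4.39 to 19.5 CPM in other cells. In each of these 3 genes the lowest library of mitotic cells lay above the highest of other cells. The 3 were picked for their large ratios, and 21.2% of all genes that passed 50 CPM were higher without overlap.

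Kinases and cyclins stood apart as clearly, with a median of 3.47 over 20 listed genes. Aurka, the kinase of the spindle poles, had 114, 135 and 145 CPM in the lowest, median and highest library of mitotic cells and 1.95, 3.61 and 7.06 CPM in other cells, a median log2 ratio of 4.85. Ccna2, the cyclin of S and G2 phase, had a ratio of 4.13, and Cks2, a small partner of the cyclin-dependent kinases, one of 4.08. Cdk1, the kinase that drives entry into mitosis, had 119.8 to 217 CPM in mitotic and 6.12 to 16.3 CPM in other cells. Plk1, a kinase of mitotic entry and exit, had 37.5 to 55.6 CPM in mitotic and 0.445 to 1.87 CPM in other cells, and its mean over all sums did not reach 50 CPM.

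Spindle motors and microtubule-binding proteins had the highest median of the lists, 4.18 over 14 listed genes. Nusap1, which bundles spindle microtubules, had 107, 159 and 206 CPM in mitotic cells (lowest, median and highest library) and 2.30, 5.79 and 8.995 CPM in other cells. The kinesin Kif20b had a median log2 ratio of 4.56 and the microtubule-binding Ckap2 one of 4.54. Among 12 listed genes of the chromosomal passenger complex and cytokinesis, with a median of 3.72, the midzone kinesin Kif23 stood at 4.46. Ect2, which activates RhoA at the cleavage site, stood at 3.83, and Cdca8, a subunit of the passenger complex, at 3.79.

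Condensins and chromosome proteins had a lower median, 2.30 over 12 listed genes. Mki67, which coats mitotic chromosomes and is the usual proliferation marker, had 309 CPM in CGRP, 302 in magnesium, 295 in zoledronate and 304 in control in mitotic cells of week 12. In those of week 4 it had 374 CPM in CGRP, 417 in magnesium, 407 in zoledronate and 449 in control. All 4 mitotic values of week 12 lay below all 4 of week 4. The median rule share of mitotic cells was also lower at week 12, at 0.224% to 0.229% against 0.261% to 0.284%. Mki67 was higher in mitotic cells with more rule UMIs in 8 of 8 libraries, so nothing about the weeks is read from it. In other cells Mki67 had 5.63 to 37.6 CPM, lowest in zoledronate at week 12. With each cell thinned to 5000 UMIs, a UMI of Mki67 was seen in 66.9% to 84.4% of mitotic cells and in 1.54% to 12.9% of other cells (94.9% to 98.8% of mitotic and 3.70% to 25.8% of other cells before thinning). No cell type that should lack Mki67 was at hand as a background. Hmgb2, a chromatin protein, had a ratio of 3.51, and the condensin subunit Smc2 one of 2.92.

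**Figure D2:**
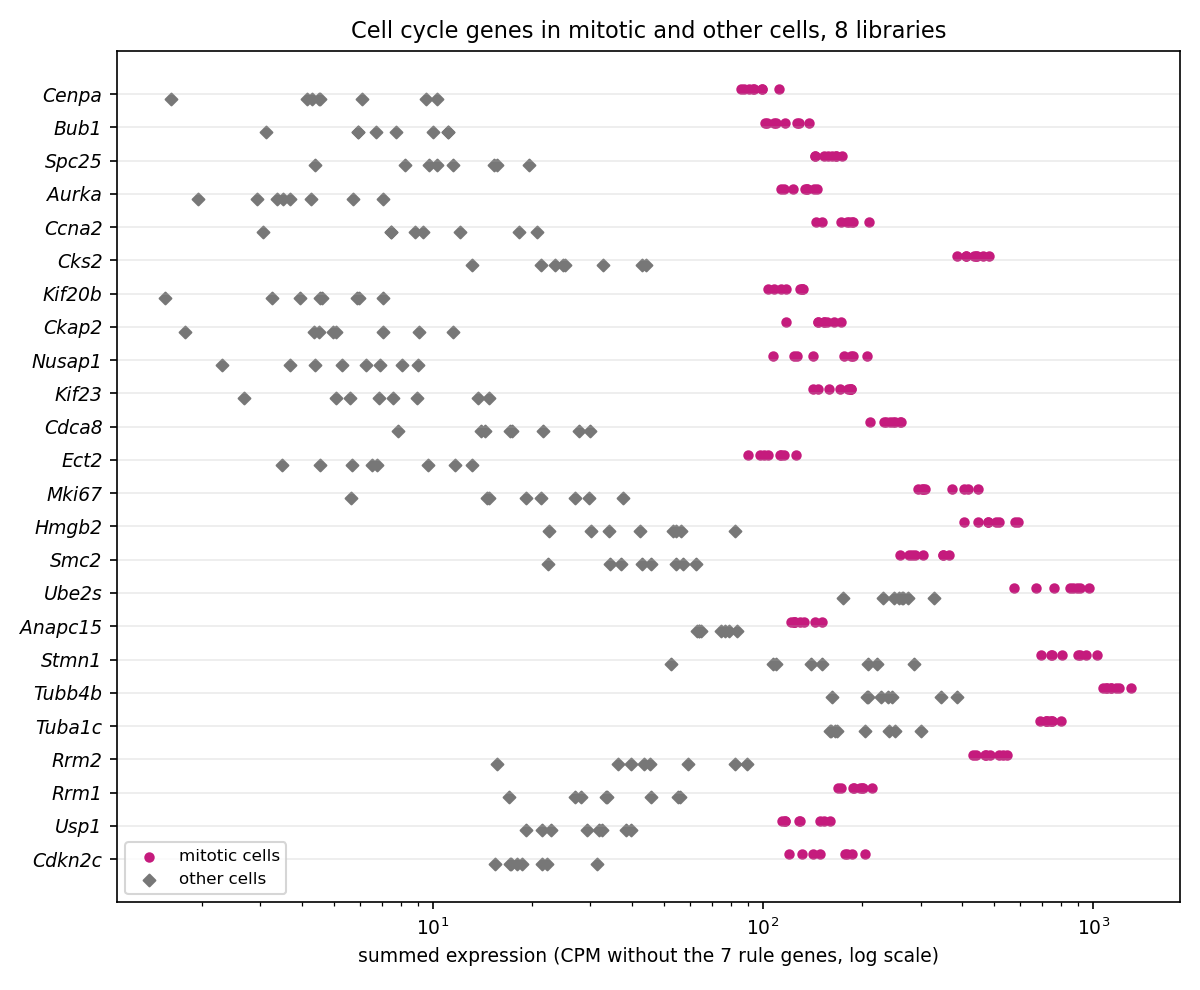
Summed expression of the named cell cycle genes (horizontal axis, CPM without the 7 rule genes, log scale) in mitotic cells (magenta) and other cells (grey) of each of the 8 libraries. Each point is 1 library; Aurka lies between 114 and 145 CPM in mitotic cells and between 1.95 and 7.06 CPM in other cells.

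The anaphase-promoting complex and its partners had a lower median than the 5 mitotic lists, 0.51 over 16 listed genes. Over the 5 of them that passed 50 CPM it was 0.13, and -0.02 with DESeq2 size factors. Ube2s, the enzyme that extends its ubiquitin chains, had 577 to 973 CPM in mitotic and 174 to 329 CPM in other cells. The subunit Anapc15 had 122 to 151 CPM in mitotic and 63.2 to 83.1 CPM in other cells. Anapc11, its catalytic RING subunit, had a ratio of 0.10 and Anapc13 one of -0.19, neither at least 1.5-fold.

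Tubulins, the subunits of the spindle, were higher with a median of 1.09 over 12 listed genes. Tubb4b had 1073 to 1305 CPM in mitotic and 162 to 385 CPM in other cells, and Tuba1c 691 to 799.7 CPM in mitotic and 159 to 301 CPM in other cells. Stmn1, which takes microtubules apart, had 694 to 1027 CPM in mitotic and 52.5 to 285 CPM in other cells. Tubb3, a tubulin best known from neurons, was lower, at -0.36. Tubulin genes resemble each other closely, and the sources used here do not say how shared reads were counted.

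Genes of DNA replication were higher too, but less so, with a median of 1.37 over 47 listed genes. Rrm2, the regulated subunit of ribonucleotide reductase, had 432, 480.0 and 547 CPM in the lowest, median and highest library of mitotic cells and 15.6, 44.5 and 89.2 CPM in other cells. Rrm1, the other subunit, had a ratio of 2.50 and Usp1, a deubiquitinase of DNA repair, one of 2.25. Pcna, the clamp of the replication fork, had 127 to 175 CPM in mitotic and 50.7 to 93.6 CPM in other cells, and Mcm5 of the replicative helicase 6.42 to 10.3 CPM in mitotic and 0.837 to 4.63 CPM in other cells.

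Regulators of G1 had a median of 0.06 over 24 listed genes. Cdkn2c, an inhibitor of the G1 kinases Cdk4 and Cdk6, had 120.0 to 204 CPM in mitotic and 15.4 to 31.5 CPM in other cells. It was the only member of the 10 that passed 50 CPM to be at least 1.5-fold higher in all 8 libraries. Over all genes that passed 50 CPM, 8.07% were. Ccnd1, the G1 cyclin, had 87.7 to 321 CPM in mitotic and 36.6 to 237 CPM in other cells, a ratio above 0 in all 8 libraries with a median of 0.49. Cdkn1b, which encodes the inhibitor p27, had 43.0 to 60.6 CPM in mitotic and 20.04 to 29.7 CPM in other cells.

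The promoters of these genes are shown because the mitotic genes were higher together. Mitotic genes are known for the cell cycle genes homology region, TTTGAA, where repressor and activator complexes of the cell cycle bind, and for the CCAAT box bound by NF-Y, while S phase genes are known for E2F sites. RefSeq windows on GRCr8, from 250 bases before to 50 after the gene start, were searched on both strands. TTTGAA was found in 39 of 59 windows of listed genes of the 5 mitotic lists (66.1%), against 18.1% of all 27457 windows and 11.7% of the 2017 windows of genes with at least 50 CPM. CCAAT was found in 40 of those 59 (67.8%), against 37.7% of all windows, and in 22 of 37 S phase windows (59.5%). Of those 37 windows, 4 (10.8%) held TTTGAA and 14 (37.8%) held TTTCCCGC or TTTGGCGC, against 1.53% of all windows for the last pair. A match is a run of letters and no evidence of binding. The promoters printed below were picked because their 200 bases before the start held TTTGAA or, for Tipin, an E2F match. Those matches were thus fixed by the choice, and named genes without them were passed over. Cenpa, with 1 TTTGAA and 0 CCAAT matches, and Kif20b, with 1 of each, were picked the same way and are not printed.

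In the 200 bases before the start, printed 5′ to 3′ along the gene's strand with matches in capitals on either strand, Cks2 (chr17:13727520-13727719 on the minus strand) has 4 CCAAT matches and, nearest the start, TTCAAA, the reverse complement of TTTGAA. Kif23 (chr8:71320585-71320784 on the minus strand) has CCAAT, read on the other strand, 88 to 84 bases before the start and TTTGAA 79 to 74 bases before it. Mki67 (chr1:199952594-199952793 on the minus strand) has 2 TTTGAA and 4 CCAAT matches, of which the last TTTGAA overlaps the last CCAAT. Tipin (chr8:73675891-73676090 on the plus strand), a replication fork protein, has an E2F match read on the other strand and neither of the others.
Cks2: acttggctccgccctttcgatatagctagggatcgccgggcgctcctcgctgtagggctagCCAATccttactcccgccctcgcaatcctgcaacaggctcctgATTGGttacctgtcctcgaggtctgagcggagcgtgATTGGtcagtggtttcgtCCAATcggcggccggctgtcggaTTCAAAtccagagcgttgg
Kif23: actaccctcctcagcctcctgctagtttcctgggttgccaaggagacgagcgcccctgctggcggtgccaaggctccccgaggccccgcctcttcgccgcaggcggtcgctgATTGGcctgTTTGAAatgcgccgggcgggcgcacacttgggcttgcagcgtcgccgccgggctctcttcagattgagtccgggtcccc
Mki67: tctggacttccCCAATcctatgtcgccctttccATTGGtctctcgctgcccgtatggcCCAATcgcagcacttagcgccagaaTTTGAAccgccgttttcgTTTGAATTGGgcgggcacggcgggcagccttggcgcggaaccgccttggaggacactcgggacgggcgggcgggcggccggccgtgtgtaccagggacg
Tipin: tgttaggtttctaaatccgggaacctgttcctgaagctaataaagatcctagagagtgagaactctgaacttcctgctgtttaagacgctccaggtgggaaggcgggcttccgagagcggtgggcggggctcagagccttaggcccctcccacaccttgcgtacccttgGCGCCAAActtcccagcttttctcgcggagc

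Outside the cell cycle lists, several of the highest genes are known from dividing cells. Depdc1 had 89.4 to 129 CPM in mitotic and 1.91 to 8.50 CPM in other cells. Knstrn, a spindle protein, had a median log2 ratio of 3.94. Arl6ip1, which shapes the endoplasmic reticulum, had 434 to 474 CPM in mitotic and 54.5 to 82.3 CPM in other cells, and Reep4, which clears that membrane from chromosomes, had a ratio of 2.44. Ezh2, the enzyme of Polycomb repressive complex 2, stood at 2.38, the formin Diaph3 at 2.51, the Ran regulator Rangap1 at 2.05 and the cohesin subunit Rad21 at 1.74. Ccdc34 (2.40), Cenps (2.15), the chromatin protein Dek (1.89) and the RNA-processing Lsm2 (1.87) completed the named genes.

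The genes lower in mitotic cells were fewer and less far apart. The groups did not overlap for 197 of the 203 higher genes, and for 4 of the 21 lower genes. Over all genes that passed 50 CPM, 21.2% were higher and 4.05% lower without overlap. Hist1h2bh, an H2B histone, had 66.3, 80.5 and 120.2 CPM in the lowest, median and highest library of mitotic cells and 241, 350.2 and 496 CPM in other cells, which did not overlap. Ypel3, a growth suppressor in human cells, had 19.4 to 37.2 CPM in mitotic and 64.2 to 121 CPM in other cells, also without overlap, and the transcription factor Sox4 73.8 to 111 CPM in mitotic and 126 to 235 CPM in other cells. Reads of histone genes may be split between near-identical copies. G0s2 (-1.74), Cox6a2 (-1.21), C1qtnf3 (-1.17), the gelatinase Mmp2 (-1.06), Eno2 (-1.04), Rgcc (-0.99), Dkk3 (-0.99), Rarres1 (-0.99) and Gng8 (-0.91) were lower with overlapping groups.

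Matrix genes leaned to the other cells. Of 14 fibrous matrix genes that passed 50 CPM, 10 were lower in mitotic cells in all 8 libraries, where 27.6% of all genes were. Against 0.835% of all genes, 2 of the 14 were at least 1.5-fold lower in all 8 libraries. Those were Thbs2, a matricellular protein with 82.8 to 1066 CPM in mitotic and 182 to 2365 CPM in other cells, and the proteoglycan Ogn, at -0.81. Decorin (Dcn, -0.998), periostin (Postn, -0.96) and lumican (Lum, -0.86) were below 0 in all 8 libraries. Of 16 fibrillar collagen and processing genes 12 were below 0 in all 8, among them Col1a1 with 10737 to 19920 CPM in mitotic and 13974 to 25064 CPM in other cells.

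Housekeeping groups differed less. Of 23 proteasome genes 21 were above 0 in all 8 libraries, where 48.1% of all genes that passed 50 CPM were. Their median was 0.27, against 0.09 over all those genes, with Psmd14 highest at 0.51. Of 78 cytosolic ribosomal protein genes 57 were below 0 in all 8, where 27.6% of all genes were, with a median of -0.13. Among heat shock genes, with a median of 0.44, the chaperone Hsp90aa1 had 1334 to 1801 CPM in mitotic and 533 to 986 CPM in other cells, and the small heat shock gene Hspb1 stood at -0.81. Thy1, a surface protein of mesenchymal cells, was higher in mitotic cells, at 80.4 to 132 CPM against 40.0 to 83.4 CPM in other cells. The fibroblastic stroma list that holds Thy1 leaned the other way, with a median of -0.20. Of its 10 genes that passed 50 CPM, 6 were below 0 and 2 above 0 in all 8 libraries. Dusp1, an early-response phosphatase, was lower, at -0.73.

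**Figure D3:**
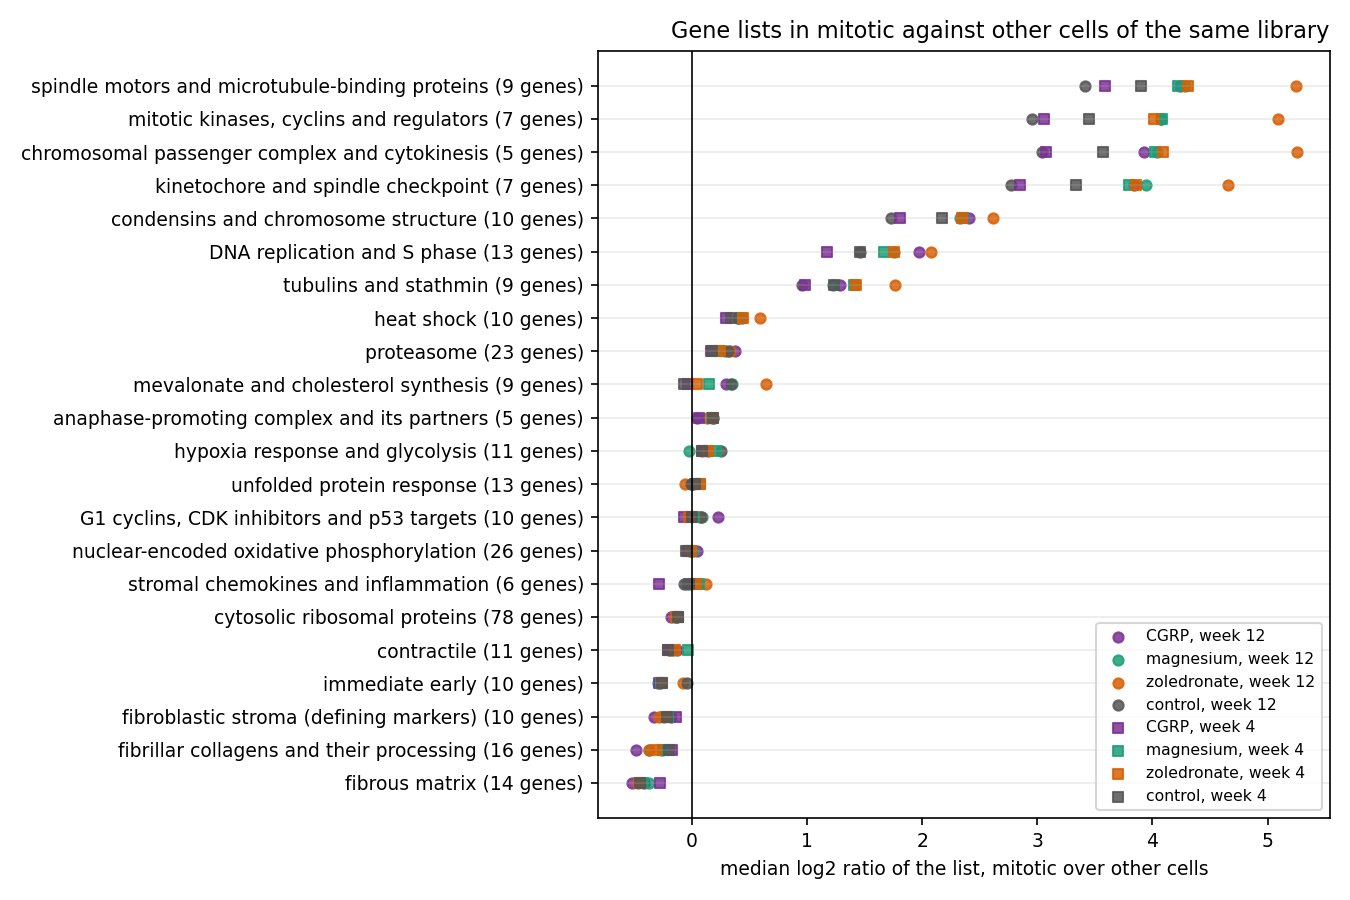
Median log2 ratio of each gene list, mitotic over other cells of the same library (horizontal axis), for lists with at least 5 genes that passed 50 CPM. Each point is 1 library, with circles for week 12 and squares for week 4; the 5 mitotic lists lie between 1.73 and 5.25, and the fibrous matrix list lies between -0.52 and -0.28.

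Mitotic cells were rarer among cells with a UMI of Dcn or Lum and among those with a UMI of Alpl or Ibsp. With each cell thinned to 5000 UMIs, the mitotic share was lower among cells with a UMI of Dcn or Lum than among those without in 8 of 8 libraries, with intervals apart in all 8. In zoledronate at week 12 it was 1.91% of positive and 5.28% of negative cells, and in CGRP at week 4 22.1% of positive and 33.0% of negative cells. The osteoblast genes Alpl or Ibsp gave the same direction in 8 of 8 libraries, with 10.5% of positive and 23.3% of negative cells in control at week 12.

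Il1rl1, which encodes the interleukin 33 receptor ST2, went the other way in 7 of 8 libraries. In zoledronate at week 12 9.61% of Il1rl1-positive and 1.51% of Il1rl1-negative cells were mitotic, and in magnesium at week 12 17.4% of positive and 6.97% of negative cells. The exception was CGRP at week 4, with 30.0% of positive and 32.3% of negative cells. Il1rl1 was seen in 54.1% of mitotic and 14.5% of other cells of zoledronate at week 12 (73.2% of mitotic and 26.6% of other cells before thinning). For the cartilage gene Hapln1 the mitotic share was higher among positive cells in 6 of 8 libraries, 2 of them with intervals apart. In control at week 12 it was 17.5% of positive and 23.2% of negative cells, and magnesium at week 12 had only 3 positive cells. The cartilage list went the other way, with a median log2 ratio of -0.26 over 13 listed genes. Its 3 genes that passed 50 CPM were below 0 in all 8 libraries, where 27.6% of all such genes were. The mitotic share was lower among positive cells in 6 of 8 libraries for Actg2 and for Ccl2 or Ccl7, and in 7 of 8 for Wfdc18, with intervals apart in 2 libraries each. For Ccl2 or Ccl7 it was higher with intervals apart in 1 further library.

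Within the mitotic cells, those with more rule UMIs had more of the other mitotic transcripts and fewer of some S phase ones. The rule genes held 0.1% to 0.2% of UMIs in 3368 cells, 0.2% to 0.4% in 3901, and 0.4% or more in 2117, which are ranges of a share and not cell types. Aurka had a median over libraries of 56.4, 135 and 229 CPM in these ranges, and Plk1 18.7, 44.6 and 74.8 CPM, higher in each successive range in 8 of 8 libraries. Pcna had 202, 137 and 98.8 CPM, lower in each successive range in 8 of 8 libraries. Mcm5, at low values, had 9.56, 6.23 and 4.37 CPM, lower in each successive range in 7 of 8. Rrm2 differed from those S phase genes, with 422, 499 and 551 CPM, higher in each range in 8 of 8 libraries. The S phase list together had 3307, 2967 and 2762 CPM, lower in each successive range in 7 of 8 libraries, against 969 CPM in other cells. The difference was small in magnesium at week 12 (2718, 2670 and 2609 CPM) and larger in control at week 4 (3720, 3213 and 2773 CPM).

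The p53 target Cdkn1a, an inhibitor of cyclin-dependent kinases, had 91.2, 70.0 and 47.3 CPM, lower in each successive range in 8 of 8 libraries, against 81.3 CPM in the other cells. Ribosomal protein genes together had 228198, 221110.0 and 208154 CPM, lower in each range in 8 of 8, against 244286 CPM in the other cells. Col1a1 had 14743, 13822 and 13030.4 CPM, lower in each range in 6 of 8 libraries. Median depth was not the same in the ranges, at 18034 UMIs in the highest and 16625 in the lowest range of CGRP at week 12. The difference was larger in zoledronate at week 12, at 24379 UMIs in the highest and 19882 in the lowest range.

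**Figure D4:**
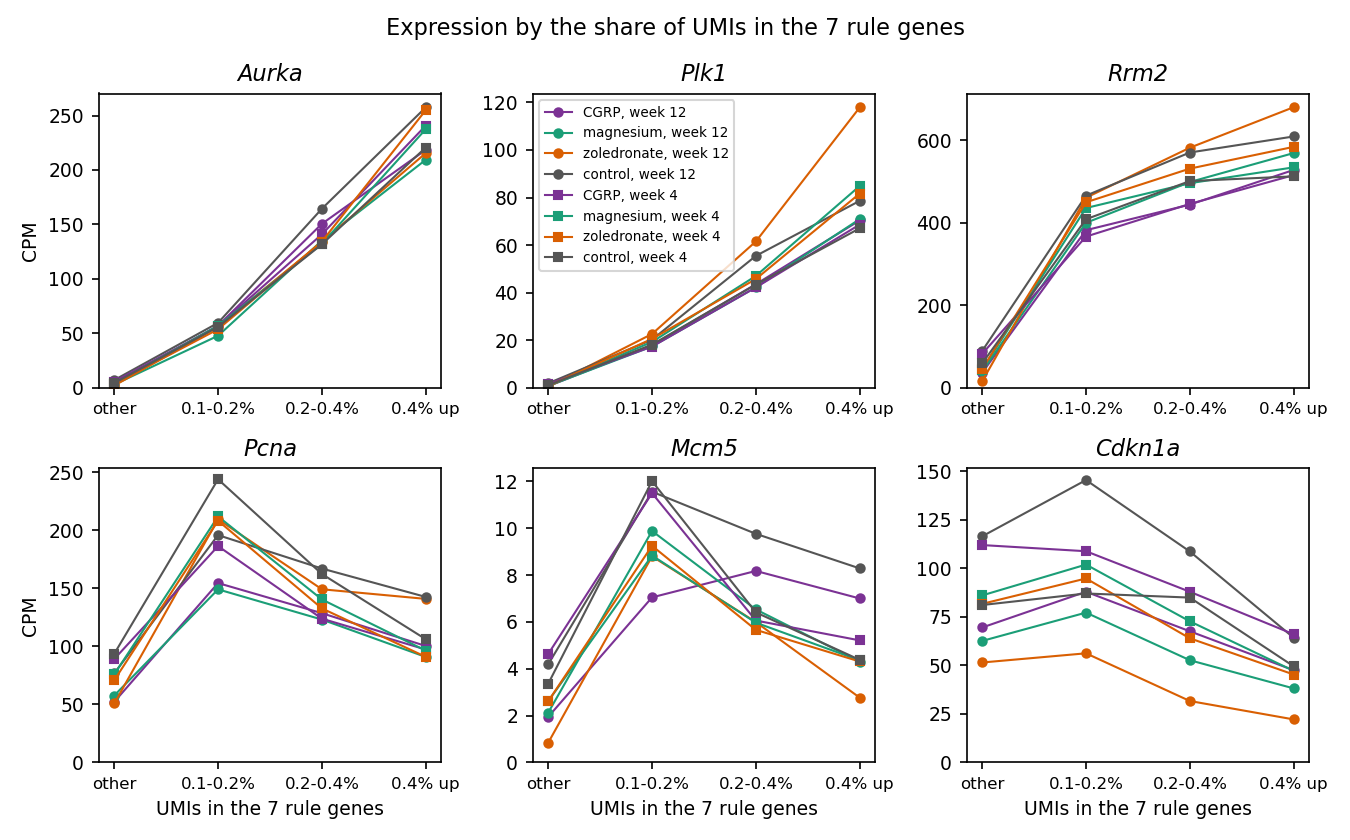
Expression of 6 genes (vertical axis, CPM) in other cells and in mitotic cells of rising share of UMIs in the 7 rule genes (horizontal axis), with a line for each library. Aurka, Plk1 and Rrm2 go up over the 3 ranges of mitotic cells, and Pcna and Cdkn1a go down, in 8 of 8 libraries.

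Between libraries the medians of the 5 mitotic lists lay between -0.27 and 0.23 in mitotic cells, over the 3 treatment comparisons at each week. In zoledronate over control at week 12 the kinetochore list had a median log2 ratio of 0.05 in mitotic cells, and -1.53 in the other cells of the same libraries. In CGRP over zoledronate at week 12 it was -0.08 in mitotic and 0.79 in other cells. Single genes differed more. Cdk1 had 119.8 CPM in CGRP and 217 CPM in zoledronate in mitotic cells of week 12 (-0.85), and Birc5 of the passenger complex 43.2 CPM in CGRP and 71.0 CPM in zoledronate (-0.71). The G1 list had a median of -0.46 in mitotic and -0.52 in other cells of zoledronate over control at week 12. Of its 10 genes, 2 were at least 1.5-fold higher and 4 lower in mitotic cells. Over all genes tested there, 2.79% were higher and 2.49% lower. Since the rule sets a lowest level of related genes, nothing about the treatments is read from the mitotic lists. The mitotic cells of zoledronate at week 12 were 257 cells with 5323896 UMIs.

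Over all genes tested, 53 (2.02%) were at least 1.5-fold higher and 109 (4.15%) lower in mitotic cells of CGRP over zoledronate at week 12, and 32 (1.24%) and 70 (2.71%) at week 4. In the other cells 5.17% of the same genes were higher and 4.22% lower at week 12, and 4.25% and 3.44% at week 4. Here and below, the genes tested were chosen by their level in mitotic cells. The rule sets a lowest level of mitotic genes there and not in other cells, so these shares are not like for like. At both weeks 5 of 2484 genes (0.201%) were higher and 22 (0.886%) lower in mitotic cells. Ptgr1, a reductase of prostaglandins, had 129 CPM (Poisson 95% interval 123 to 135) in CGRP and 57.3 CPM (50.998 to 64.1) in zoledronate at week 12. At week 4 it had 272 CPM in CGRP and 71.5 CPM in zoledronate. The glutathione transferase Gsta1, which has close relatives, had 137 CPM in CGRP and 42.8 CPM in zoledronate at week 12, and 211 CPM in CGRP and 74.9 CPM in zoledronate at week 4. The other 3 higher genes were Ccnd1 (log2 ratios of 0.83 at week 12 and 1.497 at week 4), Steap1 (1.09 at week 12 and 0.79 at week 4) and Fos (0.78 at week 12 and 1.35 at week 4).

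Smooth muscle actin, Acta2, was among the lower genes, with 1925 CPM in CGRP and 3687 CPM in zoledronate at week 12, and 1353 CPM in CGRP and 2802 CPM in zoledronate at week 4. At week 12 Wfdc1 had 189.6 CPM in CGRP and 677 CPM in zoledronate, and the water channel Aqp1 109.8 CPM in CGRP and 269.7 CPM in zoledronate. Rasl11b (-1.12 at week 12 and -2.06 at week 4) and Tsc22d1 (-1.21 at week 12 and -1.12 at week 4) were also lower. Each of these 10 genes had the same direction in the other cells of the same libraries, for example -0.84 for Acta2 at each week.

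In magnesium over zoledronate 116 genes (4.34%) were higher and 104 (3.89%) lower in mitotic cells at week 12, and 11 (0.422%) and 6 (0.23%) at week 4. In the other cells the shares of genes were 7.22% higher and 3.55% lower at week 12, and 0.422% and 0.153% at week 4. At both weeks 1 gene of 2512 (0.0398%) was higher and 1 (0.0398%) lower. Fos, an immediate early gene, had 71.8 CPM in magnesium and 41.8 CPM in zoledronate at week 12, and 137 CPM in magnesium and 61.2 CPM in zoledronate at week 4. Wfdc1 had 419 CPM in magnesium and 677 CPM in zoledronate at week 12, and 224 CPM in magnesium and 348 CPM in zoledronate at week 4. Each gene had the same direction in the other cells, with log2 ratios of 1.22 and 1.08 for Fos and -1.19 and -0.63 for Wfdc1 at weeks 12 and 4. The chemokine list had a median of 2.09 in mitotic and 1.94 in other cells at week 12, with 5 of 7 genes at least 1.5-fold higher and 1 lower in mitotic cells. At week 4 the 2 genes that passed had a median of 0.08 in mitotic and -0.19 in other cells, and 0 were past the fold.

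In zoledronate over control 75 genes (2.79%) were higher and 67 (2.49%) lower in mitotic cells at week 12, and 34 (1.3%) and 8 (0.305%) at week 4. In the other cells they were 3.79% higher and 10.8% lower at week 12, and 0.916% and 0.343% at week 4. Those lower in other cells at week 12 included 10 of 11 kinetochore genes and 12 of 16 S phase genes, which are linked to the rule. At both weeks 8 of 2511 genes (0.319%) were higher and 2 (0.0796%) lower. At week 12 Postn had 254 CPM in zoledronate, against 148 CPM in control, and at week 4 172 CPM in zoledronate, against 45.4 CPM in control. Igfbp3, which binds insulin-like growth factors, had 302 CPM in zoledronate, against 139.96 CPM in control, at week 12, and 198 CPM in zoledronate, against 62.6 CPM in control, at week 4. Actg2 (1.55 at week 12 and 0.98 at week 4), Csrp2 (1.24 at week 12 and 0.69 at week 4) and Wfdc1 (0.83 at week 12 and 0.80 at week 4) were also higher. Gsta1 (-1.41 at week 12 and -0.68 at week 4) and Fos (-0.91 at week 12 and -0.66 at week 4) were lower. Each of these genes had the same direction in the other cells of the same libraries. For Postn the log2 ratio there was 1.08 at week 12 and 1.58 at week 4. The comparisons share the zoledronate libraries, so the values of Wfdc1, Gsta1 and Fos are not independent of those above.

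**Figure D5:**
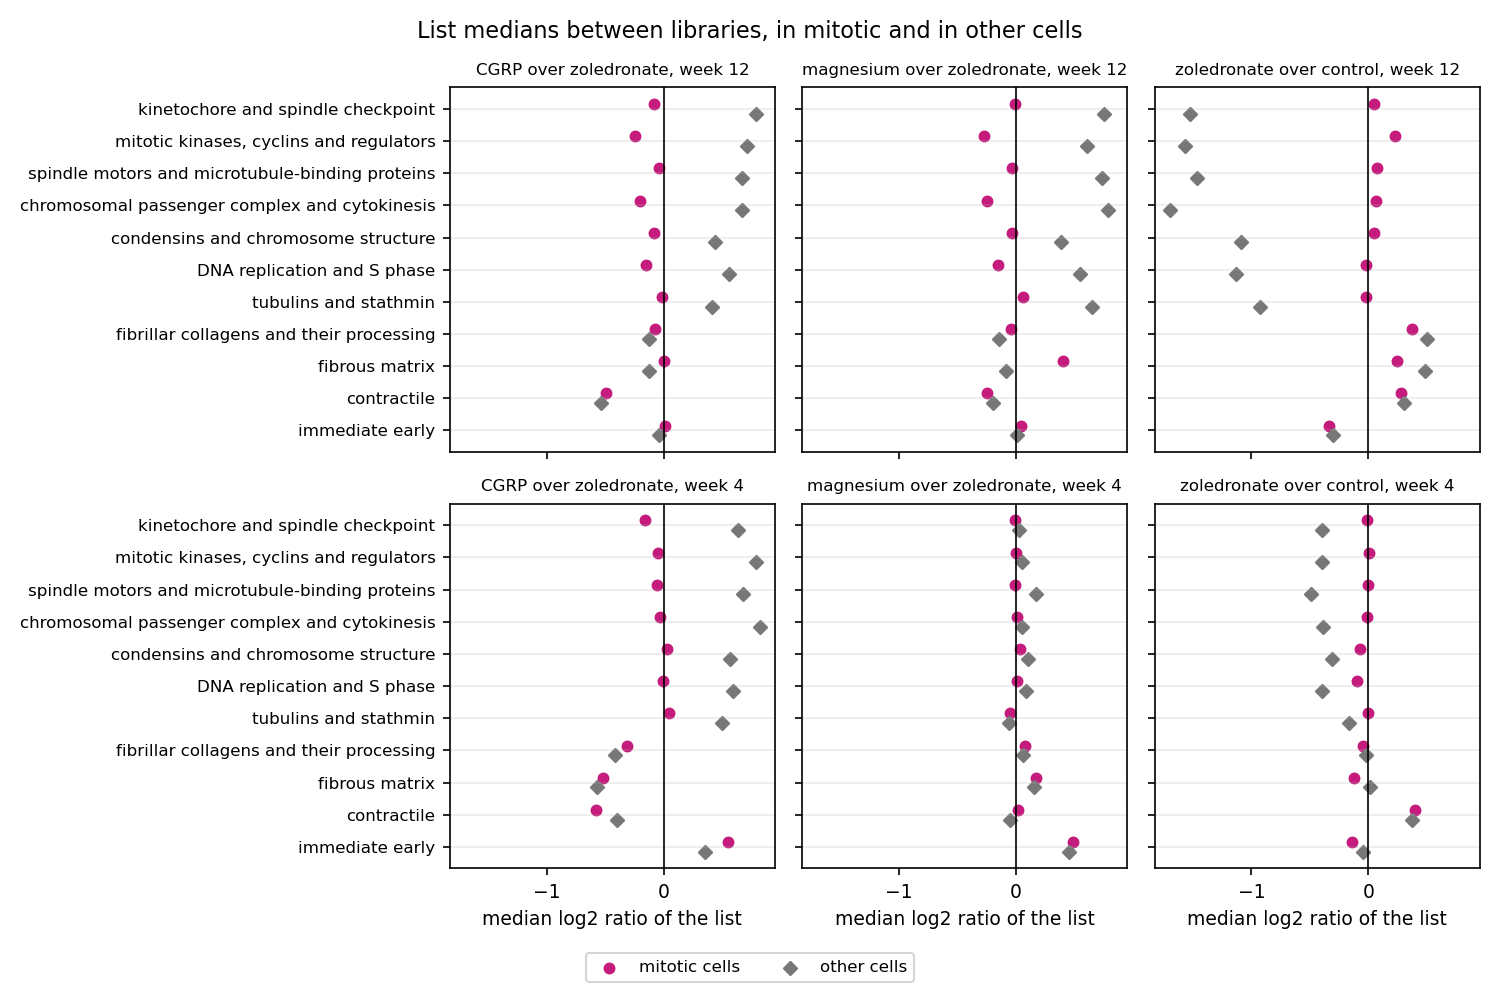
Median log2 ratio of gene lists (horizontal axis) between 2 libraries, in mitotic cells (magenta circles) and other cells (grey diamonds), for 3 comparisons at week 12 (top) and week 4 (bottom). The 5 mitotic lists lie between -0.27 and 0.23 in mitotic cells, as at 0.05 for the kinetochore list in zoledronate over control at week 12, where other cells lie at -1.53.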

How the data were processed

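Each library came as a deposited matrix of UMI counts, genes by cell barcodes, in whole numbers and not normalized. STAR and the build Rnor_6.0 are named, per the submitters' processing notes, and the sources used here give no annotation, cell calling or filters. No mitochondrially encoded gene was listed, so damaged cells could not be judged. Depth per library was 141264724 to 160177900 UMIs.

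Cells with at least 5000 UMIs were kept, doublets were not called and were treated as present, and free RNA was not corrected. UMIs were summed per library over mitotic and over other cells and scaled to CPM without the 7 rule genes, so that cells are not used as replicates. Genes needed a mean of 50 CPM over the 16 sums (between libraries, 50 CPM and 50 UMIs over the 2 sums of mitotic cells). In simulated data with the change made in mitotic cells only, this filter passed 47 of 50 genes lowered 2-fold and 50 of 50 raised 2-fold. In the real data the higher genes were 90.6% of the calls at 50 CPM, 89.3% at 5 CPM and 88.7% with no filter. A call means at least 1.5-fold in all 8 libraries. Named genes were the 3 of each cell cycle list, and the 12 in each direction outside them, with the largest smallest ratio over the 8 libraries among those called, and the first 5 per direction called at both weeks, beside examples from the lists. Members and lists were chosen with earlier results of these data known. Intervals are Clopper-Pearson for shares and Poisson for sums, and cover counting error only. The script was tested on simulated data. Alternatives used TMM factors (edgeR 4.0.16) and DESeq2 1.42.0 size factors on the counts, other thresholds, filters, pseudocounts and thinned cells. Python 3.11.15, numpy 2.4.6, scipy 1.17.1, pandas 2.3.3 and R 4.3.3 were used.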

Additional observations from a re-analysis of the deposited data

Results flagged for a closer look

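The share of mitotic cells at week 12 relative to week 4 pointed in opposite directions in different treatments. It was 0.277 times the week 4 share in CGRP, 0.657 times in magnesium and 0.234 times in zoledronate, and 1.19 times in control. At a rule share of 0.2% the control ratio was 1.04, with overlapping intervals. Each value rests on 1 library per week, so the difference between treatments was not tested.

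Il1rl1 had log2 ratios of mitotic over other cells from -0.27 (CGRP, week 4) to 2.23 (zoledronate, week 12), and Cdkn1a from -0.35 (CGRP, week 4) to 0.0611 (CGRP, week 12). Some list medians also lay on both sides of 0, depending on the library. The G1 list ran from -0.0693 to 0.22, the chemokine list from -0.29 to 0.12 and the mevalonate list (the pathway that zoledronate inhibits) from -0.0734 to 0.64. The unfolded protein response list ran from -0.0568 to 0.0680, the hypoxia and glycolysis list from -0.0281 to 0.25, and the oxidative phosphorylation list from -0.0561 to 0.0441. None of these differences between libraries was tested.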

How the results depend on the processing

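At a rule share of 0.2% the shares of mitotic cells were 5.18% in CGRP, 4.98% in magnesium, 1.52% in zoledronate and 13.3% in control at week 12, and 22.4% in CGRP, 8.71% in magnesium, 7.95% in zoledronate and 12.8% in control at week 4. At 0.05% they were 11.9% in CGRP, 12.1% in magnesium, 4.14% in zoledronate and 31.2% in control at week 12, and 39.4% in CGRP, 17.4% in magnesium, 15.5% in zoledronate and 24.6% in control at week 4. Without Cenpf they were 7.83% in CGRP, 7.24% in magnesium, 2.38% in zoledronate and 19.9% in control at week 12, and 29.2% in CGRP, 11.8% in magnesium, 10.6% in zoledronate and 17.5% in control at week 4. A minimum of 10000 UMIs gave 10.4% for CGRP at week 12, thinning gave 24.3% for control at week 12, and leaving out cells above the 95th percentile of UMIs gave 2.43% for zoledronate at week 12. The ratios of shares to zoledronate and control and between weeks kept their direction under these settings, while at 0.05% magnesium stood above CGRP at week 12. The ratio of control between weeks was 1.04 at 0.2%.

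Of the genes called in all 8 libraries, a minimum of 5 CPM gave 609 higher and 73 lower, no filter 685 and 87, and DESeq2 size factors 135 and 50, while TMM factors gave 38 lower. List medians that moved with TMM factors were 0.0207 for the anaphase-promoting complex, -0.10 for G1, -0.38 for collagens, -0.50 for fibrous matrix, -0.29 for contractile genes, 0.33 for heat shock, -0.0782 for the unfolded protein response, 0.0151 for hypoxia and glycolysis, -0.11 for oxidative phosphorylation, 0.17 for the proteasome, -0.25 for ribosomal proteins, -0.30 for fibroblastic markers and -0.0140 for all genes. With DESeq2 size factors they were -0.0157, -0.12, -0.40, -0.53, -0.33, 0.30, -0.11, -0.0161, -0.13, 0.13, -0.27, -0.32 and -0.0414 in the same order, with -0.14 for chemokines and -0.33 for immediate early genes. With at least 5 CPM the anaphase-promoting complex had 0.45, S phase 1.38, heat shock 0.33, hypoxia and glycolysis -0.0358 and oxidative phosphorylation 0.0315. With no filter these were 0.51, 1.37, 0.28, -0.00759 and 0.0315, with -0.14 for chemokines and 0.0170 for all genes. A rule share of 0.2% gave -0.16 for ribosomal proteins. The medians of the 5 mitotic lists moved by less than their spread between libraries under the settings run.

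With no filter, the genes higher and lower in mitotic cells were 454 and 436 (week 12) and 198 and 438 (week 4) for CGRP over zoledronate, 718 and 433, and 80.0 and 84 for magnesium over zoledronate, and 367 and 556, and 177 and 88 for zoledronate over control, since many genes of few UMIs enter. The cause of the other moves was not tested. No paired analysis was possible because no result comes from a test and each treatment and week is 1 library, so no replicate numbers pair them. The ratios of mitotic over other cells are taken within each library, and a fit with week as a block was not made. Depth limits the mitotic cells of zoledronate at week 12 most, with 257 cells.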

Other observations

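Genes of RNA processing were looked at as a family picked after their values were seen. Of 41 Hnrnp, Srsf, Snrp and Lsm genes with at least 50 CPM, 22 were at least 1.5-fold higher in all 8 libraries and 0 lower, and 38 were above 0 in all 8, with a median log2 ratio of 0.74. Over all genes with at least 50 CPM, 8.07% were called higher, 48.1% were above 0 in all 8, and the median was 0.09. Lsm2 (1.87) and Lsm3 (1.52), which bind U6 RNA, Srsf7 (1.23), a splicing factor, and Hnrnpa1 (1.15), a binder of nascent transcripts, stood highest in their families. Srsf9 was lowest, at -0.02. The cohesin genes Rad21 (1.74), Smc1a (1.09) and Smc3 (1.01), which hold sister chromatids together, were each at least 1.5-fold higher in all 8 libraries.

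Histone genes went both ways, with a median log2 ratio of -0.70 over the 4 with at least 50 CPM. Of these 4, only 1 was above 0 in all 8 libraries. The linker histone Hist1h1d was higher, at 2.04, and Hist1h2bh lower, at -2.04. Hist2h2aa3 was also lower, at -0.90, and below 0 in all 8 libraries. Most histone transcripts of S phase lack a poly(A) tail, and how well a poly(A)-primed library counts them was not tested.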
